A study of Mus musculus with 6 samples.

Results

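The endothelin system was examined in retinal RNAseq of 5XFAD mice through 7 genes, taken by symbol: the ligand genes Edn1, Edn2 and Edn3, the receptor genes Ednra and Ednrb, and the converting enzyme genes Ece1 and Ece2. All 7 were among the 19401 genes listed in the deposited files. The libraries were 3 control and 3 EFV-treated, each a pool of retina plus retinal pigment epithelium (RPE) from 5 to 6 mice that were 9 months old and, according to the methods of the study, male. All animals in both groups were F1 5XFAD hemizygotes on the B6SJL background, which carry mutant human amyloid precursor protein and presenilin 1. The treated group drank EFV (efavirenz, an anti-HIV drug) from 3 to 9 months of age. The labels give the dose as 0.08 mg/kg of body weight, the methods give a somewhat higher one, and control animals received water with the detergent Tween. Each library is a pool, so the errors given here describe pools and not single animals. Expected counts summed to between 23455199 and 24590294 per library. Photoreceptor and Müller glia genes marked all 6 libraries as retina: Gnat1, the transducin subunit of rods, had FPKM values from 7555 to 8157, and Glul, the glutamine synthetase of Müller glia, from 774.7 to 812.6. FPKM (fragments counted per length of the gene and per total of mapped fragments) allows levels of different genes to be compared.

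Endothelins are short secreted peptides best known for constricting blood vessels. Each is cut from a longer precursor, first by furin-like proteases and then by an endothelin converting enzyme, and acts through the receptors ETA, encoded by Ednra, and ETB, encoded by Ednrb. ETA is known from pericytes and vascular smooth muscle, where it mediates constriction, whereas ETB is known from endothelium, where it releases nitric oxide, and from glia. In the rodent retina Edn2 is known as a gene that injured photoreceptors switch on and whose product signals to Müller glia. Edn3 and Ednrb are known for their part in the development of pigment cells and enteric neurons.

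The stretches that encode the mature peptides are printed here because they show how closely the 3 ligand genes resemble each other, which bears on whether reads can be assigned to 1 of them. Each comprises 21 codons within exon 2 of 5 on the forward strand of mm10: Edn1 at chr13:42303649-42303711, Edn2 at chr4:120161951-120162013 and Edn3 at chr2:174761749-174761811. Capitals mark the 18 bases that are not the same in all 3 genes, and the converting enzymes cut the precursor directly behind the last codon shown.
Edn1: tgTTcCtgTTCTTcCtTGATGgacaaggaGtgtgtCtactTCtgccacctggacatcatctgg
Edn2: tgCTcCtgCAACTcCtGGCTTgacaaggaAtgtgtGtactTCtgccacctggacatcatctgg
Edn3: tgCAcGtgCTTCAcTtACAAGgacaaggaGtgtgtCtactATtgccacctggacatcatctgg
Of the 18 differing bases, 14 lie in the first 21 positions, and the last 21 bases are shared by all 3 genes. Edn1 and Edn2 were identical at 53 of the 63 bases (84.1%), Edn1 and Edn3 at 50 (79.4%) and Edn2 and Edn3 at 48 (76.2%). The expected counts of the 3 ligand genes were whole numbers in all 6 libraries, so no fractional assignment of reads between them and other genes was seen.

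The converting enzymes were the most abundant RNAs of the system, Ednrb was the more abundant receptor gene and Edn2 the most abundant ligand gene. Averaged over the 6 libraries, the FPKM was 10.6 ± 1.02 (SD, n = 6) for Ece2, 10.2 ± 0.365 for Ece1, 1.94 ± 0.298 for Ednrb, 1.67 ± 0.556 for Edn2, 1.11 ± 0.219 for Edn1, 0.400 ± 0.0438 for Ednra and 0.318 ± 0.0581 for Edn3. Neighbours in this order were compared library by library with an exact sign-flip permutation test on log2 FPKM, two-sided, with Benjamini-Hochberg (BH) adjustment over the 6 pairs of neighbours. Ece1 exceeded Ednrb by 2.41 on the log2 scale (SD 0.21), Edn2 exceeded Edn1 by 0.54 (SD 0.41) and Edn1 exceeded Ednra by 1.46 (SD 0.37), each in 6 of 6 libraries. For these 3 pairs the exact permutation p was 0.03125, the smallest that 6 libraries allow, and the adjusted p was 0.0625, so 0 of the 6 pairs passed an adjusted threshold of 0.05. The place of Edn2 in this order leans in part on the EFV libraries, and the family was chosen by the EFV and control levels of Edn2. Edn2 was 1.02, 1.18 and 1.65 times Edn1 in control libraries 1, 2 and 3. In EFV libraries 1, 2 and 3 it was 2.33, 1.44 and 1.41 times Edn1. The neighbours Ece2 and Ece1 (log2 difference 0.04, SD 0.13; adjusted p = 0.438 in the same exact test), Ednrb and Edn2 (0.27, SD 0.51; adjusted p = 0.438, exact) and Ednra and Edn3 (0.34, SD 0.37; adjusted p = 0.188, exact) did not differ beyond their spread.

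**Figure D1:**
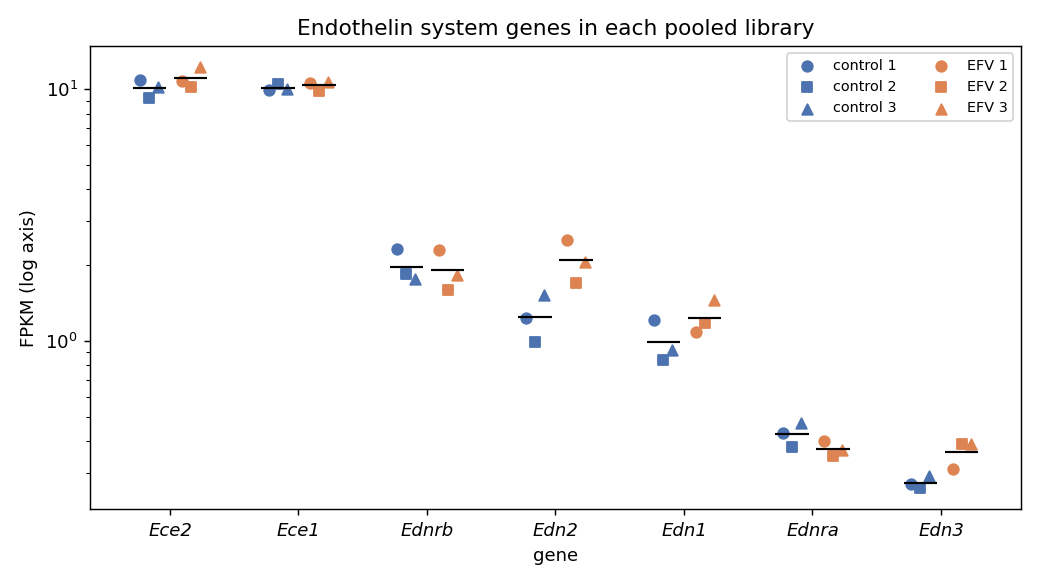
FPKM of each gene (logarithmic vertical axis) in the 3 control (blue) and 3 EFV-treated (orange) libraries, with marker shapes for the replicate number and a black line at each group mean. The genes fall into a high pair (Ece2 and Ece1, 9.21 to 12.25), a middle set (Ednrb, Edn2 and Edn1, 0.84 to 2.52) and a low pair (Ednra and Edn3, 0.26 to 0.47).

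The order of Ednrb and Edn2 was not the same in the 2 groups. In control libraries 1, 2 and 3 the FPKM of Edn2 was 0.530, 0.538 and 0.864 times that of Ednrb, and in EFV libraries 1, 2 and 3 it was 1.10, 1.06 and 1.12 times that of Ednrb. The ratio was thus below 1 in all control libraries and above 1 in all EFV libraries. Its numerator is Edn2, on whose EFV and control levels the family was chosen, while Ednrb itself overlapped between the groups. The split in the ratio is therefore a description and no result separate from the levels of Edn2.

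Of the comparison between EFV-treated and control mice, the values of the members are a description, since the family was chosen by the EFV and control levels of Edn2, which the study had already listed as differentially expressed on these libraries. All 7 genes had at least 10 counts in at least 3 libraries and were in the fit of 15537 genes (quasi-likelihood test of edgeR, BH). No gene had an adjusted p of 0.05 or less (0%), the smallest being 0.322, so no member did. DESeq2 called 11 genes at that threshold and limma on log2(FPKM + 0.1) called 0. In edgeR 473 genes (3.04% of those tested) had an unadjusted p at or under 0.05, of which 231 (1.49%) were higher and 242 (1.56%) lower with EFV, whereas scaling by total counts alone gave 290 higher and 162 lower and limma on log2(FPKM + 0.1) gave 300 and 195. The members numbered 1 at that limit, Edn2. The EFV and control libraries did not overlap for 1261 genes (8.12%), 614 of them (3.95%) higher and 647 (4.16%) lower after EFV, and for 2 members, Edn2 and Edn3, both higher. In all, 4 members had a positive and 3 a negative log2 fold change, and 50.56% of all genes tested had a positive one. The median was 0.12 against 0.0013 over all genes tested. With 7 members this median is the value of Ece2 alone (standard error 0.08), so it does not show a shift of the family.

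Edn2 (Entrez 13615, chr4:120161206-120167360 on mm10), the ligand of injured photoreceptors, was the member with the largest difference between the groups. Its FPKM was 1.23, 0.99 and 1.52 in control libraries 1, 2 and 3 and 2.52, 1.70 and 2.05 in EFV libraries 1, 2 and 3. Every EFV library lay above every control library, and the closest were control library 3 and EFV library 2. These values rest on 34 to 54 counts per control library and 60 to 90 per EFV library, where counting error alone is about 13.0% at the mean count, against a spread over all 6 libraries of 33.3% (coefficient of variation). That spread includes the difference between the groups, by which the family was chosen. Within the groups the FPKM was 1.25 ± 0.27 (SD, n = 3) in controls and 2.09 ± 0.41 (SD, n = 3) after EFV. The log2 fold change was 0.72 (standard error 0.23), a 1.65-fold difference, and 110 of the 15537 genes had a larger positive one. Leaving out each library in turn gave values from 0.56 (without EFV replicate 1) to 0.89 (without control replicate 3); without EFV replicate 1 the gene was no longer at the unadjusted limit.

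Edn1 (Entrez 13614, chr13:42301476-42307990), the vasoconstrictor of endothelial cells, had an FPKM of 1.21, 0.84 and 0.92 in control libraries 1, 2 and 3 and 1.08, 1.18 and 1.45 in EFV libraries 1, 2 and 3. The groups overlapped, since control library 1 lay above EFV libraries 1 and 2. Their log2 difference was 0.30 (standard error 0.21), from 41 to 73 counts per library, and it was 0.46 without control replicate 1 and 0.18 without EFV replicate 3. The span of an antisense gene, Gm47118, overlaps that of Edn1. Whether their exons overlap, so that reads of the pair could be confused without strand, was not examined.

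Edn3 (Entrez 13616, chr2:174760619-174784042), the ligand with the lowest level, which binds ETB far better than ETA, had an FPKM of 0.27, 0.26 and 0.29 in control libraries 1, 2 and 3 and 0.31, 0.39 and 0.39 in EFV libraries 1, 2 and 3. The groups did not overlap, but they came within 0.02 FPKM of each other. With only 19 to 29 counts per library the counting error was about 20.6% at the mean count, more than the spread over the 6 libraries of 18.2%, and the log2 difference between the groups, 0.38, had a standard error of 0.25.

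Summed over the 3 ligand genes, the FPKM was 2.51 ± 0.364 (SD, n = 3) in controls and 3.69 ± 0.364 (SD, n = 3) after EFV, with ranges of 2.09 to 2.73 and 3.27 to 3.91. Edn2 made up 45.4, 47.4 and 55.7% of this ligand RNA in control libraries 1, 2 and 3 and 64.5, 52.0 and 52.7% in EFV libraries 1, 2 and 3. The summed level separated the groups, whereas the share of Edn2 overlapped between them, because Edn1 and Edn3 were also higher on average in EFV-treated mice. The separation of the sum rests on Edn2, on whose levels the family was chosen: Edn1 and Edn3 together had an FPKM of 1.48, 1.10 and 1.21 in control and 1.39, 1.57 and 1.84 in EFV libraries 1, 2 and 3, which overlap.

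**Figure D2:**
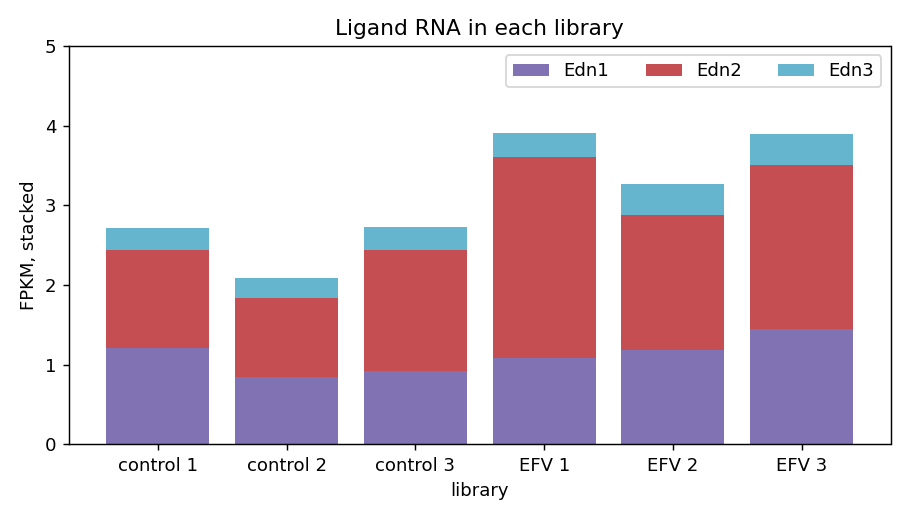
Stacked FPKM of Edn1 (purple), Edn2 (red) and Edn3 (light blue) in each of the 6 libraries. The totals of the EFV libraries (3.27 to 3.91) lie above those of the control libraries (2.09 to 2.73), and Edn2 is the largest segment in every library.

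Both receptor genes overlapped between the groups. Ednrb (Entrez 13618, chr14:103814625-103844402, reverse strand) had an FPKM of 2.32, 1.84 and 1.76 in control libraries 1, 2 and 3 and 2.30, 1.60 and 1.83 in EFV libraries 1, 2 and 3. Both groups had 1 library near 2.3, and the remaining libraries overlapped. Its log2 fold change was -0.04 (standard error 0.17), and leaving out 1 library gave -0.19 (without EFV replicate 1) to 0.10 (without EFV replicate 2), the sign also turning without control replicate 1 (0.08). Ednra (Entrez 13617, chr8:77663031-77724464, reverse strand) had an FPKM of 0.43, 0.38 and 0.47 in control and 0.40, 0.35 and 0.37 in EFV libraries 1, 2 and 3, from 31 to 41 counts per library. The groups overlapped and differed by -0.21 on the log2 scale (standard error 0.21). Leaving out 1 library gave values from -0.28 (without control replicate 2) to -0.13 (without control replicate 3). The span of a noncoding gene on the opposite strand, 4933431K23Rik, overlaps that of Ednra, and overlap of their exons was not examined either.

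Per length, Ednrb exceeded Ednra 4.66 ± 0.840-fold (SD, n = 3) in controls and 5.09 ± 0.602-fold (SD, n = 3) after EFV. ETB accounted for 84.4, 82.9 and 78.9% of the receptor RNA in control libraries 1, 2 and 3 and for 85.2, 82.0 and 83.2% in EFV libraries 1, 2 and 3, a mean of 82.8% ± 2.19 (SD, n = 6). The groups overlapped in this share, which was lowest in control library 3. In these bulk samples, fewer cells that express a receptor and less RNA per cell cannot be told apart.

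The converting enzymes had the most counts and the smallest spread. Ece1 (Entrez 230857, chr4:137862237-137965229), the main enzyme that releases mature endothelins, had 1062 to 1093 counts in every library, and its FPKM was 9.94, 10.46 and 10.05 in control and 10.59, 9.81 and 10.67 in EFV libraries 1, 2 and 3. The coefficient of variation of its FPKM over the 6 libraries was 3.56%, which includes the varying gene length in the files (4145 to 4582 bases). The counting error of 3.04% applies to its counts, so it is not a like measure. The log2 fold change of Ece1 was -0.04 (standard error 0.05). On log2(FPKM + 0.1) the value was 0.03, so its sign depends on whether counts or FPKM are used. The span of the antisense gene Gm13012 overlaps that of Ece1, again without a check of the exons. Ece2 (Entrez 107522, chr16:20629828-20646485), a relative active at acidic pH and known mainly from neurons, had an FPKM of 10.87, 9.21 and 10.17 in control and 10.81, 10.16 and 12.25 in EFV libraries 1, 2 and 3. The highest value was in EFV library 3 and the others overlapped, the log2 difference being 0.12 (standard error 0.08). Leaving out 1 library gave values from 0.05 (without EFV replicate 3) to 0.17 (without control replicate 1). The difference was -0.01 when the RPE markers described next were taken as a covariate.

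**Figure D3:**
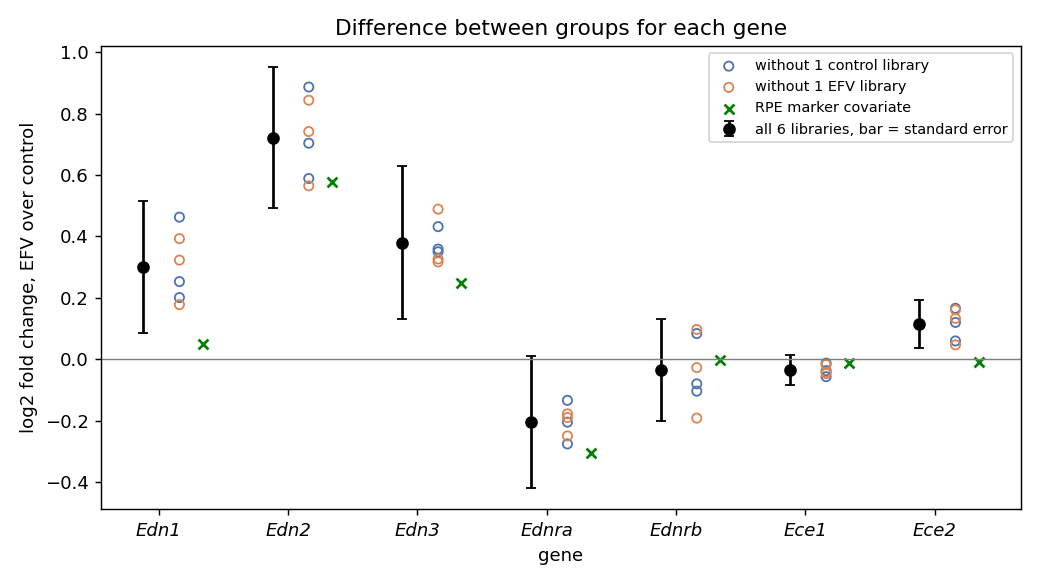
Log2 fold change of EFV-treated over control mice for each gene from all 6 libraries (black, bar = standard error), with 1 library left out (open circles, coloured by the group of that library) and with RPE markers as a covariate (green crosses). Edn2 lies between 0.56 and 0.89 in the fits with 1 library left out, whereas Ednrb lies on both sides of 0.

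Markers of other cells differed between the same libraries. All 9 RPE markers were higher in EFV-treated mice by log2 fold changes from 0.10 to 0.65, and none was at 0 in any library. Of these, 4 were at the unadjusted limit of 0.05 in edgeR, where 1.49% of all genes tested were higher. The list was not independent of this contrast. The study had already listed Rpe65, Lrat, Kcnj13, Slc16a8 and Stra6 as differentially expressed on these libraries. The summed FPKM of the 9 RPE markers was 32.4 in control library 2, 59.0 and 61.2 in the other control libraries and 55.5 to 70.7 in EFV libraries. Control library 2 also had the lowest Edn1, Edn2 and Edn3. EFV library 1 had the lowest RPE sum, Edn1 and Edn3 of its group, but the highest Edn2. With the mean log2 abundance of the RPE markers as a covariate, the log2 fold change was 0.58 (standard error 0.315) for Edn2, which was then no longer at the unadjusted limit, and 0.05 (standard error 0.288) for Edn1. Because the RPE markers themselves differed between the groups, this covariate cannot be fully separated from the group. All 4 astrocyte markers were higher too (0.07 to 0.40, none at the unadjusted limit), with sums of 11.1 to 13.8 in control and 12.8 to 16.9 in EFV libraries and the highest sum again in EFV library 1. Gfap, the filament protein of astrocytes and reactive Müller glia, reached 3.97 ± 0.737 FPKM (SD, n = 3) in controls and 5.30 ± 1.53 FPKM (SD, n = 3) after EFV. All 5 fibroblast markers tested were higher as well (0.02 to 0.50), with sums of 2.84, 2.55 and 3.18 in control and 3.88, 3.15 and 3.37 in EFV libraries 1, 2 and 3, the lowest in control library 2 and the highest in EFV library 1, as for Edn2. Lum, a further fibroblast marker, was too low to test and was not listed in control library 2. Col1a2, a collagen gene of fibroblasts, did not overlap between the groups and was at the unadjusted limit in edgeR (0.50, standard error 0.20). Gfap and Col1a2 had also been listed by the study as differentially expressed on these libraries. The part of the astrocyte and fibroblast markers in the values of Edn2 was not tested.

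**Figure D4:**
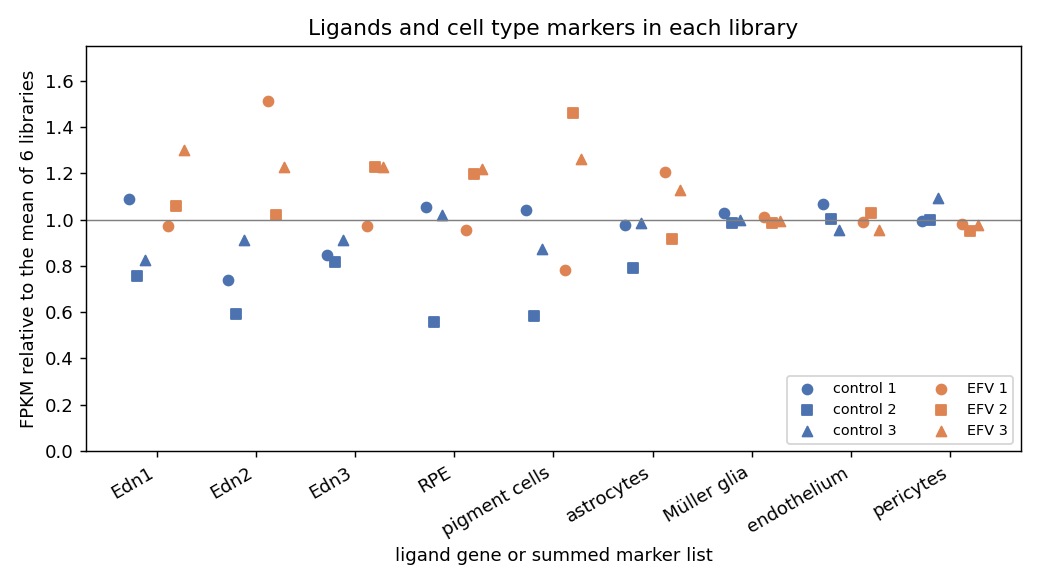
FPKM of each ligand gene and summed FPKM of marker lists in each library, relative to the mean of the 6 libraries (control blue, EFV orange, marker shape = replicate number). Summed RPE markers were lowest in control library 2, as were the 3 ligands, while Müller glia, endothelium and pericyte sums stay close to 1 in every library.

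Further markers of cells known to carry the receptors, beside the astrocytes, were counted in the same way. Of 10 pericyte and smooth muscle markers 7 were lower and 3 higher in EFV-treated mice (median log2 fold change -0.04, sums 23.7 to 26.1 in control and 22.7 to 23.4 in EFV libraries), of 10 endothelial markers 8 were lower and 2 higher (median -0.06, sums 60.1 to 67.1 and 59.9 to 64.4), and of 8 Müller glia markers 6 were lower and 2 higher (median -0.02, sums 1395 to 1454 and 1394 to 1433). None of these genes was at the unadjusted limit or at 0 in any library. The groups did not overlap for 3 of the 10 pericyte and smooth muscle markers, nor for their sum, beside 8.12% of all genes tested, and the part of these cells in the level of Ednra was not tested. Rgs5, a signalling regulator of pericytes, reached 12.7 ± 0.727 FPKM (SD, n = 3) in controls and 11.8 ± 0.211 FPKM (SD, n = 3) after EFV. Among the remaining lists, pigment cell markers were higher in 5 of 7, microglia markers in 3 of 5 tested and cone markers in 2 of 5. Rod markers were higher in 2 of 6 and lower in 4 (median log2 fold change -0.04). Their sums were 23930 to 24700 in control and 22970 to 24370 in EFV libraries. The 6 lens markers tested were lower, and control library 3 stood apart in them, with a summed FPKM of 169.0 against 3.66 to 7.48 in the other 5 libraries. Without that library the log2 fold change of Edn2 was 0.89.

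The wider pathway was followed in 69 further genes, of which 65 were tested, 31 of them higher and 34 lower after EFV. None was at an adjusted p of 0.05, and none was at an unadjusted p of 0.05 in edgeR, where 3.04% of all genes were. The groups did not overlap for 6 of the 65, beside 8.12% of all genes. Among 31 genes that couple endothelin receptors to calcium, the contractile machinery and arrestins, 15 were higher and 16 lower (log2 fold changes from -0.21 to 0.12), and the most abundant, Gnas and Gnai2, which encode G protein alpha subunits, differed between the groups by log2 values of 0.00 (standard error 0.04) and -0.07 (standard error 0.05). Among the peptidases related to the converting enzymes, together with furin, 2 were higher and 3 lower. Furin, which cuts the endothelin precursors first, reached 11.9 ± 0.207 FPKM (SD, n = 3) in controls and 12.3 ± 0.494 FPKM (SD, n = 3) after EFV, a level close to that of Ece1 and Ece2.

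The response that is known to accompany Edn2 in injured retina was looked at through 13 genes of the LIF and FGF2 response, 5 of which were higher and 8 lower after EFV (median -0.04 on the log2 scale). The most abundant were Vim, an intermediate filament gene of Müller glia (log2 fold change -0.16, standard error 0.18, with its highest FPKM, 84.8, in control library 3), and Il6st, the shared receptor subunit for LIF (-0.04, standard error 0.06). Vim had an FPKM of 57.73 and 45.04 in control libraries 1 and 2 and of 57.75, 52.99 and 59.25 in EFV libraries 1, 2 and 3. Control library 3 is also the library that stood apart in the lens markers, and a link between these values was not tested. Gfap belongs to this list as well (0.40, standard error 0.21). The non-overlapping gene of the list was Nes, which encodes the filament protein nestin (0.31, standard error 0.17), and it was picked out after its values were seen. Of the 16 tested genes of other vasoactive systems 9 were higher and 7 lower, with a median of 0.01. The most abundant, Gucy1a1 and Gucy1b1, the subunits of the nitric oxide receptor, differed by 0.02 (standard error 0.05) and -0.03 (standard error 0.05). Apln, which encodes the vasodilator peptide apelin, also picked out after its values were seen, was the non-overlapping gene of that list with the largest difference (-0.41, standard error 0.19).

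The genes whose log2 abundance followed Edn2 most closely over the 6 libraries were Stk33, Gm12657 and Trim30a, with root mean square differences of 0.165, 0.167 and 0.171 on the log2 scale after each gene was centred on its mean. These distances include the difference between the groups, by which the family was chosen. Stk33, Gm12657 and Trim30a had log2 fold changes of 0.62, 0.62 and 0.55, so their likeness to Edn2 is not separate from that contrast. Their mean FPKM was 0.305, 4.94 and 0.175, which is low for Stk33 and Trim30a. Likeness to Edn2 was common, since 171 of 2294 genes of sufficient spread lay within 2 times the smallest of these distances. For Ednra the closest were Cadps2, Phtf2 and Frmd6 (0.034 to 0.044), and for Ednrb they were Hcrtr1, Kcnu1 and Arhgef16 (0.042 to 0.061). Within 2 times the smallest distance lay 37 of 9126 genes for Ednra and 13 of 5688 for Ednrb. The spread of Ednra over the 6 libraries (coefficient of variation 10.95%) was below its counting error of about 16.9%, so its likeness to other genes carries little weight.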

How the data were processed

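Per the labels and the methods, reads were filtered and aligned to mm10 (the submitters' processing notes name HISAT2 2.0.4 and Bowtie2 2.2.5). The authors deposited RSEM 1.2.12 expected counts per gene, not normalized, which were rounded to whole numbers here, and FPKM values, which the authors had divided by gene length and library total and rounded. A gene missing from a library was taken as 0. Annotation release and strandedness are not given in the sources used here.

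Genes reaching 10 counts in 3 or more libraries were tested with edgeR 4.0.16 (R 4.3.3; TMM, factors 0.984 to 1.01; group only; two-sided; BH). Alternatives were other scalings and filters, DESeq2 1.42.0, limma 3.58.1 on log2 FPKM with pseudocounts of 0.1 and 1, a Poisson model, a replicate block, RPE markers as a covariate and leaving out each library. The fit was tested on simulated data with the same dispersion for all genes, where edgeR recovered 184 of 200 genes changed 2-fold, with 14 false calls. Smaller differences and more variable genes, such as Edn2, were not simulated. The study set its threshold with a Poisson model, whose variance holds counting error alone. Members and lists were chosen with earlier results of these data known. Named were all members, per list the 2 most abundant genes and pathway genes at an unadjusted p of 0.05, and the 3 genes closest to Edn2, Ednra and Ednrb among those with at least 0.5 times the SD of the member; named otherwise were Nes, Apln and, by overlap, Gm47118, 4933431K23Rik and Gm13012. Not every marker is reported here. Positions and overlaps of whole gene spans are from GENCODE M21.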

Additional observations from a re-analysis of the deposited data

How the results depend on the processing

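At an adjusted p of 0.05 edgeR called 0 genes under the other scalings, filters, the block and the RPE covariate, limma called 0 with both pseudocounts, DESeq2 called 11 and a Poisson model 2042; leaving out 1 library gave 0 to 1. At an unadjusted p of 0.05 DESeq2 gave 124 higher and 146 lower genes, the Poisson model 1928 and 1973, and leaving out 1 library 182 to 266 and 205 to 311; the cause was not tested, apart from the Poisson model, which by construction allows for counting error alone. Deviations of same-numbered control and EFV libraries correlated at 0.125, 0.0732 and 0.102 across genes, not all above 0.1, so the numbers were not taken as pairs; every library correlated best with its own number, and the replicate block gave 246 higher and 274 lower genes. The count of neighbouring pairs past the adjusted threshold stayed at 0 in each alternative; with 5 libraries the exact test cannot go below 0.0625. Of 117 alternative values of the members' log2 fold changes, 111 moved by less than the SD between pools. The sign never turned for Edn1, Edn2, Edn3 and Ednra, and turned in 2 settings each for Ednrb and Ece1 and in 1 for Ece2. The share of ETB in receptor RNA lay between 82.3 and 83.5% with 1 library left out. Edn3 and Ednra, with 19 to 41 counts, are limited by counting error.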

Other observations

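Ednrb and Ece1 are quantified over several transcripts, 3 RefSeq and 1 assembled by the authors for Ednrb and 1 RefSeq and 2 assembled for Ece1, and the files give a mean gene length weighted by their abundance. This length lay between 3747 and 4096 bases for Ednrb and between 4145 and 4582 bases for Ece1, and for Ece1 both extremes were EFV libraries (4145 in EFV library 1 and 4582 in EFV library 2). The counts of Ece1 in these 2 libraries were 1062 and 1082, so the difference in its FPKM (10.59 and 9.81) came with the length rather than the count.

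Ece2 was the member with fractional counts, in 3 of the 6 libraries. It overlaps a readthrough gene that joins it to Eef1akmt4, and the readthrough was listed in the same 3 libraries, with counts of 10.04 in control library 1, 4.03 in EFV library 1 and 0.50 in EFV library 3, beside 662.0 to 899.6 counts of Ece2. The readthrough therefore held a small part of the reads of the locus in each library.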
